A study of Homo sapiens with 6 samples.

Results

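The regions described here were open in NPCs that lack both H3K27 demethylases and still open when BAF53B was supplied, and they were not called open in WT NPCs. They were chosen by measured values, as the ATAC-seq peaks of the dKO list that overlapped no WT peak and overlapped a peak of the BAF53B list by at least 1 bp, and 5506 of the 25439 dKO peaks (21.6%) met the rule. They are called retained regions below. ATAC-seq marks open chromatin by where the Tn5 transposase inserts sequencing adapters. H1 is a human embryonic stem cell line, and NPCs are the neural progenitor cells that were derived from it with a pair of SMAD pathway inhibitors.

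The 3 groups were WT NPCs, dKO NPCs (UTX and JMJD3 knockout) and dKO NPCs with BAF53B, each with 2 replicates. Per the study's methods, Cas9 removed the catalytic domains of UTX (KDM6A) and JMJD3 (KDM6B) and clones were picked after puromycin selection, and BAF53B came from a lentiviral vector. The labels give the BAF53B cells the same genotype as the dKO cells. The WT and dKO titles read NPC2 and the BAF53B titles NPC, so a difference in passage cannot be told apart from BAF53B. The labels point both samples of a group to a single list, so the data hold 3 lists, and how the replicates were combined is not given in the sources used here. No spread between replicates could be computed, no p-value is given, and a group cannot be told apart from the clone or the virus of its cells. The WT list held 7880 peaks and the BAF53B list 16948. Of 30 genes that regulate NPCs, the WT, dKO and BAF53B lists had a promoter peak at 4, 21 and 13. Over all 20033 protein-coding genes the counts were 5622, 11228 and 8945. Most of the markers of the labelled cell type were thus not called open in WT, and neither were most genes.

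UTX and JMJD3 remove methyl groups from lysine 27 of histone H3, a mark that Polycomb complexes place on silent genes. BAF complexes are ATP-driven remodellers that move nucleosomes and open promoters and enhancers, and BAF53B (ACTL6B) is the actin-related subunit that replaces BAF53A as neural progenitors become neurons. Most constantly used human promoters are rich in CpG and are bound by factors such as SP/KLF, ETS, NRF1, NFY and YY1, whereas enhancers more often carry sites of factors specific to a cell type or a signal, such as AP-1, SOX and TEAD proteins.

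The kinds of sequence found among the retained regions are shown first. The distal example is the retained region with the highest dKO fold that lies over 3 kb from any transcription start site (TSS), and the examples near a TSS are named regions from the ends of the BAF53B/dKO range and from the top of the dKO fold. All are from hg38, 5′ to 3′, with 100 bases on each side of the dKO summit or, where that window meets a UTR, the 100 bases before the TSS. Capitals mark letters of any searched motif on either strand.
It lies between genes at chr16:33336671-33336871 (+ strand).
Intergenic region nearest to TP53TG3B: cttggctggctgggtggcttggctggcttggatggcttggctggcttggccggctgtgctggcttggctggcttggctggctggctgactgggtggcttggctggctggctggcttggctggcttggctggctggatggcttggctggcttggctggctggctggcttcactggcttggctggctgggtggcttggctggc
The next lies in the first intron of SPAG4, 625 bp after its TSS, at chr20:35616354-35616554 (+ strand) and was among the regions with the lowest BAF53B/dKO ratio.
SPAG4 intron: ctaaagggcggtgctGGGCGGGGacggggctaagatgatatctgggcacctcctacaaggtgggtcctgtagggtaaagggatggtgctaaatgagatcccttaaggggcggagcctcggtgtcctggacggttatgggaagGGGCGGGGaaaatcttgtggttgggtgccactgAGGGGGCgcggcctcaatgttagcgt
The last 3 lie directly before the TSSs of MAD2L1 at chr4:120066859-120066958, CDK20 at chr9:87974754-87974853 and DET1 at chr15:88546682-88546781, all on the - strand. The first and the second of these were the pair with the highest BAF53B/dKO ratio among regions with at least 50 dKO fragments.
MAD2L1 promoter: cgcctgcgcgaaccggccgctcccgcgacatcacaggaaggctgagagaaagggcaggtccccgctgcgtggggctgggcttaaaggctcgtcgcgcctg
CDK20 promoter: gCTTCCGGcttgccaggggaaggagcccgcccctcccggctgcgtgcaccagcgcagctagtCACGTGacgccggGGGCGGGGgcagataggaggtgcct
DET1 promoter: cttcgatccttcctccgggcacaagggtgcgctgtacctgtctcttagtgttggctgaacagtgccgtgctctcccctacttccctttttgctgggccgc
The intergenic region is a run of repeated ggctt and ggctg units with none of the searched motifs, and the 51 bases at its summit occur 1 time in the genome. The SPAG4 window holds SP/KLF letters and a CTCF core. The CDK20 promoter holds an ETS, a CACGTG E-box and an SP/KLF motif, and the MAD2L1 and DET1 windows hold none.

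The values that chose these regions describe them as follows. The pileup is the number of fragments covering the summit, solved from each peak's deposited fold and p-value. In the dKO list the retained regions had 25 to 173 fragments, with a median of 45 and a middle 50% from 37 to 58. The BAF53B value is read at the summit of the overlapping BAF53B peak of highest fold, which need not be the dKO summit. It was 26 to 184 fragments, with a median of 37 and a middle 50% from 33 to 43. Depth was close in these lists, since the genome background, taken as depth, was 6.81 fragments in dKO and 6.78 with BAF53B (6.33 in WT). Scaled to that background, the BAF53B/dKO ratio had a median log2 of -0.26 (0.838-fold) and ranged from -1.96 to 1.01. It was higher with BAF53B in 1424 regions (25.9%), and in 231 regions (4.20%) it was at least 2-fold lower. On the deposited folds the median log2 ratio was -0.10. Every retained region had to pass the peak threshold in both lists, which keeps strong losses out of this count, and regions shared by all 3 lists had a median log2 ratio of -0.46.

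**Figure D1:**
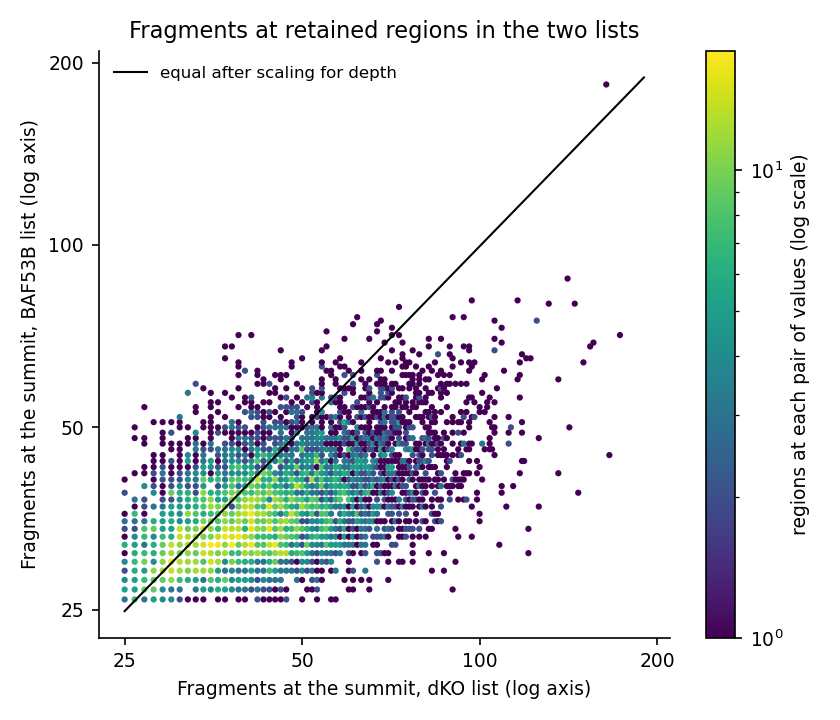
Fragments at the summit of the 5506 retained regions in the dKO list (x, log axis) and in the overlapping BAF53B peak (y, log axis), with colour for the number of regions at each pair of values and a line at equal values after scaling for depth. Most regions lie below the line, and 25.9% lie above it.

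The peaks of both lists mostly lay close together. Summits were a median of 44 bp apart, and 4073 of 5506 (74.0%) were within 100 bp of each other. The BAF53B peak covered at least 50% of the retained region in 4802 cases (87.2%). A retained region was a median of 663 bp wide, against 419 bp for the 13728 dKO regions found in neither other list and 832 bp for the 5769 found in all 3.

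Absence from the WT list is a missing call and sets no value for accessibility in WT. Of the retained regions, 4868 (88.4%) were over 10 kb from any WT peak and 138 (2.51%) had a WT peak within 500 bp. After scaling dKO values to WT depth, 4833 (87.8%) would pass the lowest −log10 p of the WT list, against 58.5% of the dKO regions in neither other list, and 306 (5.56%) held at least 2 times the fragments needed. The furthest above that level was at the gene of FZD2, a Frizzled receptor for WNT ligands, with 156 dKO fragments, which after scaling were 3.02 times those needed. The shares that would pass rest on the dKO values that put these regions in the dKO list. Median dKO fragments were 45 at retained regions and 34 at dKO regions in neither other list, so these shares are a description.
The rule has an edge on each side. The retained regions nearest to a WT peak were at EIF2AK2, PTPN6 and MCM9, with gaps of 4, 5 and 14 bp, and the shared regions with the smallest WT overlap were nearest to PRL, NOVA1 and RNPC3, with 24, 27 and 36 bp. The smallest overlaps with a BAF53B peak were at TSC22D2, CPNE1 and ANKRD52, with 3, 12 and 14 bp, while the dKO regions nearest to SPTAN1, KPNB1 and AFG3L2 missed one by 0, 1 and 1 bp.

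Where the regions lie was not used to choose them. Retained regions were mostly at promoters. Of 5506 summits, 3508 were within 3 kb of a TSS (63.7%, 95% Wilson interval 62.4 to 65.0), against 31.6% (30.8 to 32.4) of the dKO regions in neither other list, 80.8% of those in all 3 lists and 50.2% of all dKO peaks. The ratio of the first pair was 2.01 (1.95 to 2.08). For protein-coding TSSs alone the shares were 53.7%, 21.3% and 73.6%. Retained regions therefore lay between the other classes in promoter content. Intervals cover counting error only and not differences between libraries.

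Outside promoters, 1130 retained regions (20.5%) lay in introns, 612 (11.1%) between genes and 256 (4.65%) in exons, against 37.5%, 24.6% and 6.28% of the dKO regions in neither other list. Divergent promoters, where a pair of protein-coding genes start back to back within 1 kb, held 177 summits within 500 bp (3.21%). This was near the 2.79% over all dKO peaks. The ratio to the dKO regions in neither list was 7.23 (5.42 to 9.66). Regions of all 3 lists had 8.15%, and the ratio of retained regions to them was 0.39 (0.33 to 0.47). Only lncRNA TSSs were near 442 retained regions (8.03%), against 6.64% of the dKO regions in neither list. Regions over 50 kb from any TSS made up 6.48%, against 14.0%.

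At promoters most retained summits sat close to the start site. Of the 2958 within 3 kb of a protein-coding TSS, 2012 (68.0%, 66.3 to 69.7) were within 250 bp of it, against 49.0% of the dKO regions in neither other list and 79.3% of those in all 3. The median position was -11.5 bp, against 44.5 bp and -44 bp, where negative values lie before the start. The dKO regions in neither list thus reached further into the transcribed part.

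**Figure D2:**
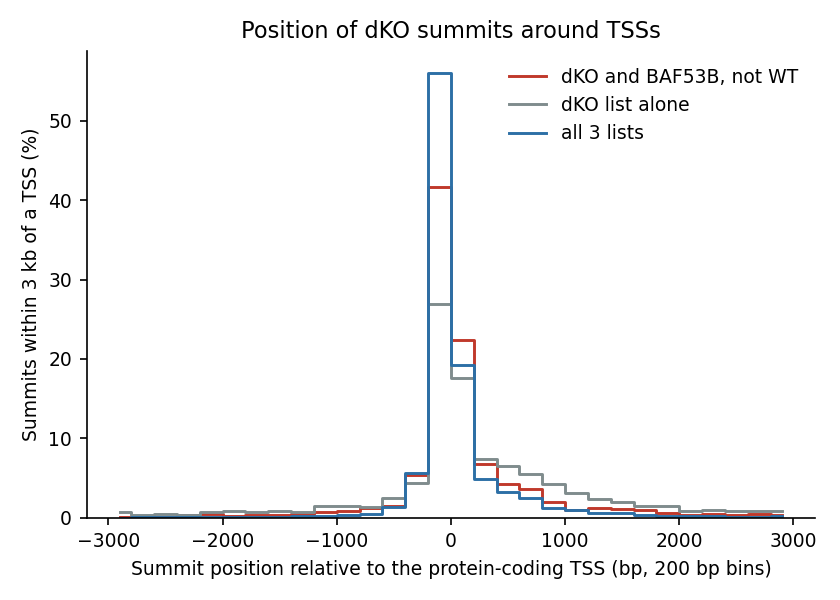
Share of summits within 3 kb of a protein-coding TSS that fall in each 200 bp bin (y, %) by position relative to that TSS (x, bp, negative before the start), for retained regions, dKO regions in neither other list and dKO regions in all 3 lists. In the bin just before the TSS the retained regions stand at 41.6%, between the other classes.

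Base composition also differed between the classes. The window of 100 bp on each side of a retained summit had a median GC content of 65.2%, the same as in regions of all 3 lists and above the 57.2% of dKO regions in neither other list. A CpG-rich window (GC of at least 50% and a CpG ratio of at least 0.6) was found at 61.6% of retained regions, 25.1% of dKO regions in neither list and 79.2% of those in all 3. Within the retained set, median GC was 68.7% at TSSs and 56.2% over 3 kb away. The GC preference of each library is not known from peak lists, and its part in these differences was not tested.

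Strength in dKO moved with retention and with position, so both were read together. The dKO regions absent from WT were read in 5 groups of similar size by dKO fragments (25 to 29, 30 to 34, 35 to 40, 41 to 49, and 50 to 173). At TSSs the retained share went from 16.3% in the lowest to 27.6%, 35.2%, 46.3% and 65.0% in the highest. Over 3 kb from any TSS it went from 6.73% to 13.6%, 18.8%, 27.1% and 42.0%. In every group the TSS share of retention was above the distal share, with intervals that did not overlap. The ratio of TSS content, retained over not retained, was 2.15 in the lowest group and 1.39 in the highest, and 1.56 with equal weight for all groups, so it was smaller at matched strength than the pooled 2.01.

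**Figure D3:**
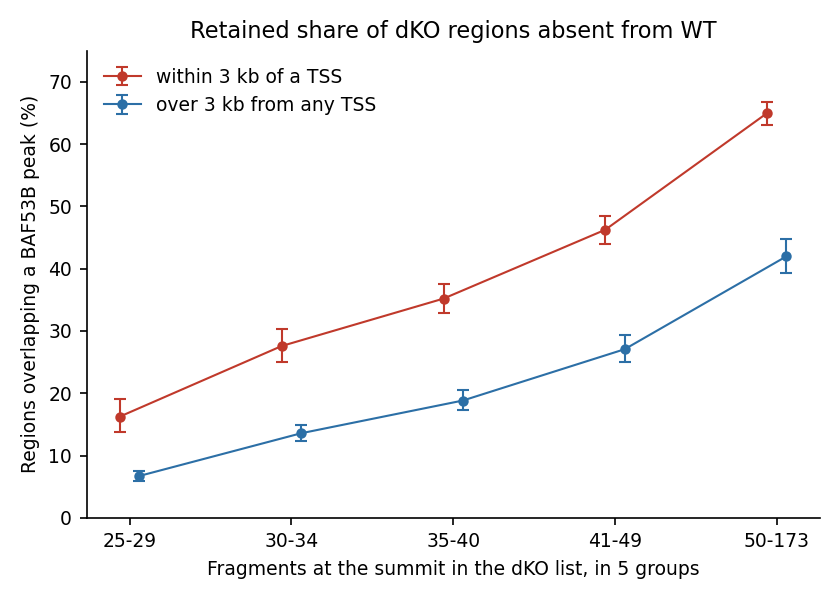
Share of dKO regions absent from WT that overlap a BAF53B peak (y, %) by group of dKO fragments at the summit (x), within 3 kb of a TSS and farther away, with 95% Wilson intervals. Both curves rise with strength, to 65.0% at TSSs and 42.0% elsewhere, and the TSS curve is the higher in all 5 groups.

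Promoter and distal retained regions also differed in the BAF53B value. At the 3508 TSS regions the median was 48 fragments in dKO and 39 with BAF53B, a median log2 ratio of -0.30. At the 1998 distal regions it was 40 and 35, a median of -0.17, and 34.8% were higher with BAF53B, against 20.8% at TSSs. Weaker dKO peaks must hold more of their height to be called again, so these ratios are a description.

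Motif letters within 100 bp of the dKO summit, searched on both strands, also differed between the classes. The promoter motifs were SP/KLF (GGGCGGGG), ETS (CCGGAAG), NFY (CCAATCA or CCAATGA or CCAATCG), NRF1 (GCGCATGCG), YY1 (AAGATGGCG) and CRE (TGACGTCA), the site of CREB family factors. At TSSs, SP/KLF letters were in 30.6% of retained regions, 19.8% of dKO regions in neither other list and 31.8% of those in all 3, against 22.5% of all protein-coding TSS windows of the same length. ETS letters were in 14.9%, 6.10%, 17.6% and 10.2% in the same order. Letters of NFY, a factor that binds the CCAAT box, were in 12.3% of retained regions, 5.37%, 26.9% and 10.7%. At NFY the retained promoters were nearer to the average promoter than to those open in all 3 lists, with a ratio to the latter of 0.46 (0.41 to 0.50). The NRF1, CRE and YY1 letters below were also nearer to the average promoter.

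The rarer promoter motifs showed the same order. NRF1 letters were in 2.48% of retained TSS regions, 0.991% of dKO regions in neither list and 4.55% of those in all 3, against 1.91% of all TSS windows. The CRE was in 2.39%, 0.829%, 3.30% and 1.87%, and the YY1 letters in 2.02%, 0.829%, 3.07% and 2.04%. For YY1 the retained promoters were thus level with the average promoter. For ETS letters over all positions, the ratio of retained regions to dKO regions in neither list was 3.64 (3.22 to 4.12), and 2.37 to 3.55 in the 5 groups of dKO strength. CpG and GC content move with these letters, and their part was not tested.

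Promoter motifs were also more frequent at distal retained regions than at distal dKO regions in neither other list. SP/KLF letters were in 10.6% against 5.02%, a ratio of 2.11 (1.81 to 2.47), ETS letters in 3.35% against 1.48%, 2.26 (1.70 to 3.02), and NFY letters in 7.61% against 4.97%, 1.53 (1.28 to 1.82). The ratios were larger for the rare NRF1 letters, 5.87 (2.75 to 12.5), the CRE, 4.70 (2.61 to 8.47), and YY1, 3.61 (1.59 to 8.23), which were found at 15, 22 and 10 of the 1998 distal retained regions. These letters were therefore also found over 3 kb from the 5′ end of any gene. Start sites inside a gene are not among the TSSs used here, so promoters there would count as distal.

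Some motifs differed at distal regions and not at TSSs. AP-1 sites (TGACTCA or TGAGTCA), bound by FOS and JUN family dimers, were within 100 bp of 139 of 1998 distal summits (6.96%, 5.92 to 8.16), against 4.25% (3.86 to 4.68) of distal dKO regions in neither other list and 6.86% of those in all 3. The ratio of the first pair was 1.64 (1.36 to 1.97), and 1.49 to 2.01 in the 5 groups of dKO fragments. In the lowest and the highest group the intervals included 1 (0.96 to 2.53 and 0.88 to 2.51). At TSSs the ratio was 0.95 (0.72 to 1.25) and over all regions 1.10 (0.94 to 1.28). The difference was thus seen over 3 kb from TSSs and not in the pooled set. Over all positions, AP-1 letters were in 4.07% of retained regions, 15.7% of BAF53B peaks in neither other list and 15.1% of WT peaks absent from dKO.

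An AP-1 example was printed for each of the pair of distal retained regions of highest dKO fold that carry the letters. These were picked after the values were seen and lie at chr12:20212851-20213051 and chr4:96736621-96736821 (+ strand), with AP-1 letters in capitals.
Region nearest to PDE3A: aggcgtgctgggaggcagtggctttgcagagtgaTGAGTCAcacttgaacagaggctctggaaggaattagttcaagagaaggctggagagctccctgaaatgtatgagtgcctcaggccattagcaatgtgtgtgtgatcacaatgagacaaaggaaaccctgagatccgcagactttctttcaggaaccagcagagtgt
Region nearest to PDHA2: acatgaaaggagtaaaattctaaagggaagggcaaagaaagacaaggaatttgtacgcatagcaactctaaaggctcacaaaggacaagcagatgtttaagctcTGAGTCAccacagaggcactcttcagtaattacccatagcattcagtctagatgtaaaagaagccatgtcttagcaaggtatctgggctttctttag
The first had 69 fragments in dKO and 45 with BAF53B, and the second 51 and 30. They lie 155586 and 896628 bp from the nearest protein-coding TSS.

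SOX, TEAD and homeodomain letters and the CTCF core had distal ratios from 1.20 to 1.27. SOX letters (CCATTGT or CCTTTGT) were in 11.4% of distal retained regions against 9.02% of distal dKO regions in neither list, a ratio of 1.26 (1.10 to 1.45). TEAD letters (GGAATGT or GGAATGC) gave 1.20 (1.05 to 1.36), and the CTCF core (AGGGGGC or AGGTGGC) 1.25, with 21.1% against 16.9% and intervals that did not overlap. At TSSs the ratio was below 1, at 0.81 (0.66 to 0.99) for SOX and 0.63 (0.51 to 0.78) for TEAD. Over all positions it was 0.87 (0.78 to 0.98) for SOX, 0.76 (0.68 to 0.85) for TEAD and 0.74 (0.62 to 0.89) for homeodomain letters. The homeodomain core (TAATTA) gave 1.27 (1.03 to 1.56) over 3 kb away but 0.57 (0.37 to 0.87) at TSSs, and it was 1.95 (1.32 to 2.89) times as frequent in distal retained regions as in distal regions of all 3 lists. RFX sites (GTTGCCA or GTTGCTA or GTTACCA) gave 1.34 (1.15 to 1.56), while the CAGCTG E-box of many bHLH factors was in 18.8% of both. The OCT (ATGCAAAT) and OTX (TAATCCC) letters and the TATA box (TATAAA) gave distal intervals that included 1. Of the 17 motifs searched, CACGTG was the remaining one, with a ratio of 1.37 (1.15 to 1.64) at TSSs.

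**Figure D4:**
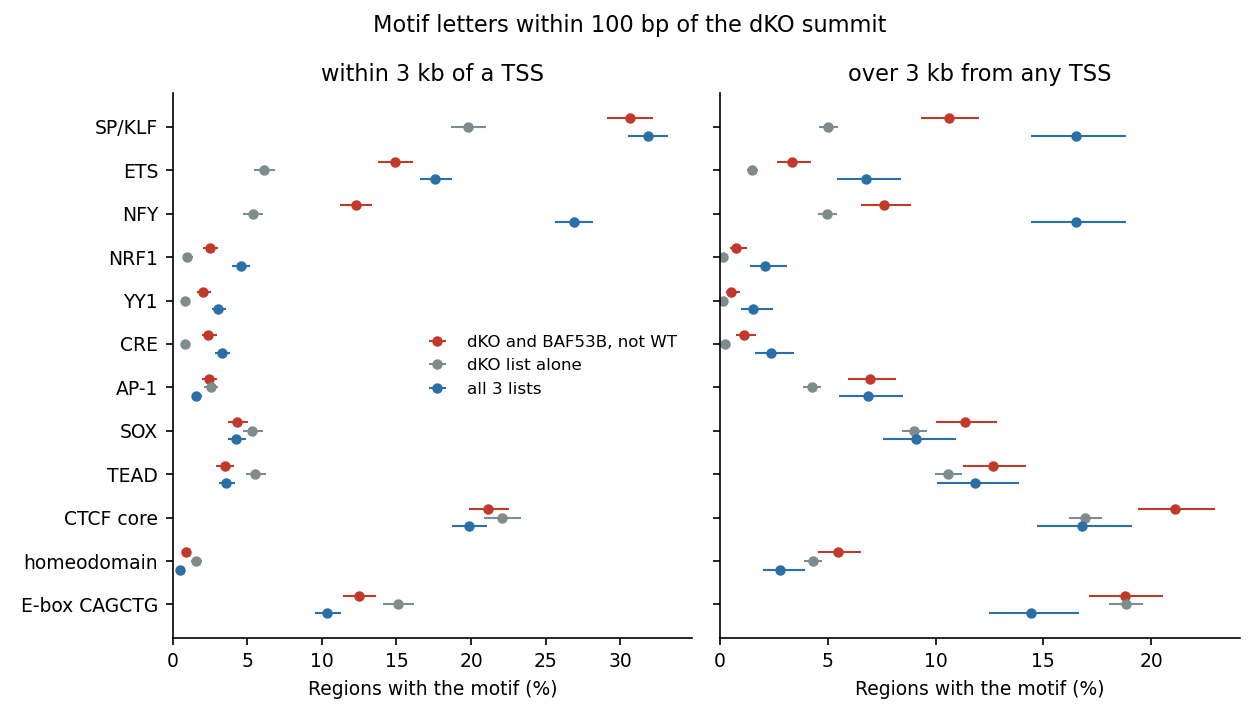
Share of regions with motif letters within 100 bp of the dKO summit (x, %) for 12 motifs (y), at TSSs (left) and over 3 kb away (right), with 95% Wilson intervals. Retained regions lie between the other classes for the promoter motifs, and level with the regions of all 3 lists for distal AP-1 (6.96% and 6.86%).

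The genes with a retained region at the promoter came next. Of 20033 protein-coding genes, 3389 (16.9%) had at least 1 retained region within 3 kb of the TSS. Of these, 3148 had no WT promoter peak, which is 55.3% of the 5688 genes with a dKO and no WT promoter peak. That share is the background for the lists below, which were chosen with earlier results of these data known. The median of the highest dKO fold per gene was 4.14 over all 3389.

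Several lists of general cell machinery lay above the background of genes with a dKO and no WT peak. For the mitochondrial ribosome, which translates the proteins encoded in mitochondria, 30 of 78 genes (38.5%) had a retained promoter region, and these were 28 of 36 genes (77.8%, 61.9 to 88.3) with a dKO and no WT peak. The ciliary list held IFT and BBS genes, such as IFT88, IFT140 and BBS4, which move cargo along the primary cilium. It also held CEP genes of centrosomal proteins, such as CEP135, CEP164 and CEP78. Together they gave 20 of 59 (33.9%) and 19 of 22 (86.4%, 66.7 to 95.3). Cytosolic ribosomal proteins gave 21 of 82 and 20 of 26 (76.9%, 57.9 to 89.0), and zinc finger ZNF genes, mostly DNA-binding repressors, 129 of 508 and 124 of 176 (70.5%, 63.3 to 76.7). All 4 intervals lie above 55.3%. Their median dKO folds were 4.51, 4.40, 4.52 and 4.38. Mediator, the bridge between enhancers and RNA polymerase II, gave 11 of 15 (73.3%) and the proteasome 10 of 13 (76.9%), with intervals that include the background. DNA repair and replication and respiratory complex I each gave 9 of 16 (56.2%), level with the background.

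Lists of neural identity and signalling had intervals that include the background, except for the BMP list. Their shares of all genes were not low, with 26.7% for NPC regulators and 25.6% for the Notch pathway against 16.9%, and 27.3% (3 of 11) for AP-1 factors. For NPC regulators it was 7 of 17 genes with a dKO and no WT peak (41.2%, 21.6 to 64.0), for neuronal genes 5 of 11 (45.5%), for WNT ligands and Frizzled receptors 5 of 11, and for BMP ligands, receptors and ID genes 2 of 9 (22.2%, 6.32 to 54.7). The Notch pathway gave 8 of 13 (61.5%), BAF subunits 4 of 9 (44.4%), and Polycomb, KDM6 and COMPASS genes 11 of 16 (68.8%). Extracellular matrix and other genes that the study named as opened, a list chosen on these samples, gave 10 of 18 (55.6%). AP-1 factors and RNA polymerase II gave 2 of 3 each. The median dKO fold was 3.33 for NPC regulators, 3.55 for the Notch pathway and 3.17 for neuronal genes, lower than in the machinery lists, and retention was more frequent at stronger dKO regions. The part of strength in the differences between lists was not tested. No retained region was found at the promoters of 415 olfactory receptor, 55 keratin or 39 HOX genes, and 1 was found among 53 clustered protocadherins. In these 4 families the dKO list itself had a promoter peak at 4, 4, 3 and 9 genes.

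**Figure D5:**
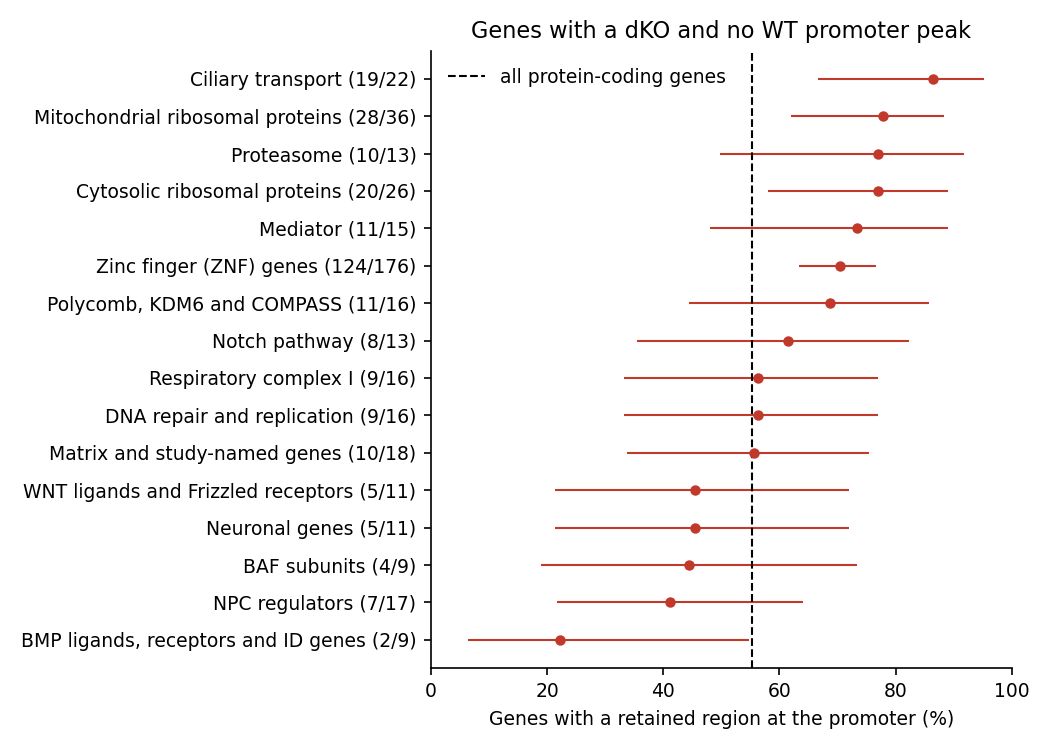
Share of genes with a retained region at the promoter (x, %) among the genes with a dKO and no WT promoter peak in each list that has at least 9 of them (y), with 95% Wilson intervals and counts in brackets. Ciliary, ribosomal and ZNF lists lie above the dashed line at 55.3%, which is the share over all protein-coding genes, and of the lists drawn BMP and ID genes lie lowest at 22.2%.

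Named promoters show how the members of a list differed. Among NPC regulators, SIX3, a homeobox gene of the anterior neural plate, had 112 fragments in dKO and 52 with BAF53B (log2 ratio -1.10). SOX1, a transcription factor of neural progenitors, had 46 and 67 (0.55), and FABP7, a lipid-binding protein of radial glia, had 28 and 45 (0.69). SOX1 and FABP7 were thus higher with BAF53B and SIX3 lower. The FABP7 peak was near the threshold in dKO, with a −log10 q of 5.69. Weaker dKO peaks must hold more of their height to be called again. The directions at these and the following named promoters are therefore a description. PTPRZ1, a receptor phosphatase of radial glia, had 35 and 36, MEIS1 41 and 37, and the cadherin gene CDH2 42 and 39 in its first intron.

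In the Notch pathway, the receptor gene NOTCH1 had 109 fragments in dKO and 40 with BAF53B (-1.44), and the ligand gene DLL3 had 46 and 29 (-0.66). The target genes HEY1, with 58 and 63 (0.13), and HEY2, with 47 and 56 (0.26), were slightly higher with BAF53B. The HEY2 summit was 1956 bp after its TSS. The Notch inhibitor gene NUMBL had 72 and 54 and the coactivator gene MAML2 39 and 36. These are the 6 of 10 retained Notch genes with the highest dKO fold, and they held both directions.

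Among neuronal genes, SYP, of a synaptic vesicle protein, had 46 and 26 fragments (-0.82) and STMN1, of a microtubule regulator, 87 and 46 (-0.91). GAP43, a growth cone gene, had 30 and 46 (0.62), NEFL, of a neurofilament, 33 and 38 (0.21), and the interneuron homeobox gene DLX2 43 and 39. The list thus held both directions, but GAP43 and NEFL were near the threshold in dKO, with −log10 q values of 5.59 and 5.51. In the matrix list F11R, of a tight junction protein, went from 83 to 29 fragments (-1.51), HSPG2, of perlecan, from 80 to 40 (-0.99) and COL5A1, of a fibrillar collagen, from 80 to 44 (-0.85). CC2D1A had 59 and 36, CCN2, of a secreted matricellular protein, 51 and 34, and TNC, of tenascin C, 38 and 38.

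Among BAF subunits, BCL11B had 79 and 52 fragments (-0.60), ARID1A 93 and 47 (-0.98) and ACTB 50 and 37 (-0.43). ARID1A and ACTB also had a WT peak elsewhere in the promoter window. SMARCE1 had 33 and 33, BICRAL 39 and 36, and BCL7C 52 and 41. Of the chromatin genes, KMT2C, an H3K4 methyltransferase, had 58 and 37 (-0.64), DPY30, a core COMPASS subunit, 57 and 47 (-0.27), RBBP7, a histone chaperone of PRC2, 37 and 26, and YAF2, a PRC1 subunit, 47 and 35. All 4 were lower with BAF53B. KDM6A and KDM6B, the deleted genes, are in this list too, and a peak at a promoter does not test a deletion of the catalytic domain.

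At the ends of the range among retained regions with at least 50 dKO fragments, the 5 highest and 5 lowest BAF53B/dKO ratios were taken. MAD2L1, of a spindle checkpoint protein, had 55 fragments in dKO and 72 with BAF53B (log2 0.40), CDK20, of a cell cycle kinase, 50 and 65 (0.39), and PRR14 54 and 67 (0.32). FBXL19 had 62 and 76. The PRR14 and FBXL19 summits were 790 bp after and 1252 bp before the TSS, on the flank of a wider BAF53B peak.
The lowest ratio was in an intronic region of chromosome 1 that lies 60537 bp from the nearest protein-coding TSS, from 121 to 31 fragments (-1.96). SPAG4, whose intron sequence is printed with the others, went from 147 to 39 (-1.91) and an intron of PTPRU, a receptor phosphatase gene, from 166 to 45 (-1.88). DENND1C had 121 and 34 (-1.82) and GDF11, of a TGF-beta family ligand, 126 and 37 (-1.76). All 5 still overlapped a BAF53B peak, with 0.258- to 0.295-fold of the dKO value at the summit of that peak. At DENND1C the BAF53B peak ended at position 6476473, before the dKO summit at 6476728, so its 2 values are from different positions.

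By dKO fold, the strongest retained region was the intergenic repeat on chromosome 16, at 10.5-fold over local background with 81 fragments in dKO and 39 with BAF53B. A region 230 bp from the TSS of the small nuclear RNA gene RNVU1-29 had 9.98-fold and 77 and 45 fragments. FBF1, of a centriolar protein, had 97 and 47, CMC1 87 and 61, and ZNF322 83 and 52. These regions were picked for their dKO value, so a lower value with BAF53B is a description. DET1, VPS29 and ZNF223 had 86, 94 and 93 fragments in dKO. All of these were lower with BAF53B after scaling, from 0.432-fold at ZNF223 to 0.705-fold at CMC1. Strong distal regions besides the intergenic repeat were an intergenic region on chromosome 11 nearest to SMCO4 (67 and 39), an intron of MYOF (100 and 43) and an intron of CACNA2D1 (71 and 44).

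The share of dKO peaks that were retained ran from 19.4% to 25.6% over the autosomes and the X chromosome, and was 3 of 40 (7.50%, 2.58 to 19.9) on the Y chromosome.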

How the data were processed

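The deposited data were 3 MACS2 narrowPeak lists, 1 from the authors for both replicates of each group. Per the labels and the study's methods, reads were trimmed (cutadapt 1.13), aligned to hg38 (Bowtie2 2.2.5), cleared of duplicates (SAMtools 1.3.1, Picard 1.90) and called as peaks. MACS2 options and the Tn5 shift are not given in the sources used here. The deposited fold is a ratio of summit pileup over local background with a pseudocount of 1, and the deposited −log10 columns hold MACS2's Poisson p-value and its adjusted q-value, and every peak has a −log10 q of at least 5. Pileup and background were solved from the fold and the −log10 p in Python 3 (pandas, scipy), tested on simulated data, and the lowest background of a list was taken as its depth. It was left unsolved for 5 WT, 5 dKO and 7 BAF53B peaks.

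A TSS is the 5′ end of a GENCODE 44 gene. Shares have Wilson 95% intervals and ratios log-scale intervals. Regions were named by rule: the 10 highest dKO folds, the 5 highest over 3 kb from a TSS, the 5 highest and lowest BAF53B/dKO ratios among regions with at least 50 dKO fragments, up to 6 promoters in each of 6 gene lists, and regions at the edges of the rule. Some regions that met this rule are not reported here. The members and lists were chosen with earlier results of these data known. Alternatives were a −log10 q of 10, lists of equal length, other overlaps, windows and TSS sets, and weighting by strength.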

Additional observations from a re-analysis of the deposited data

How the results depend on the processing

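No paired analysis was possible because both samples of a group are represented by a single list, and no replicate could be left out for the same reason. With a −log10 q of at least 10 there were 3165 retained regions, 79.1% at TSSs, with a TSS ratio to dKO regions in neither other list of 1.37, a median GC of 66.7%, an AP-1 ratio of 0.786 (interval 0.597 to 1.03) and a median log2 BAF53B/dKO ratio of -0.35. With lists of equal length there were 1122, 78.3% at TSSs, with a ratio of 1.35. A reciprocal overlap of 50% gave 67.6% and 1.91, a 1 kb TSS window 56.2% and 2.45, and protein-coding TSSs 53.7%. Equal weight over 5 groups of dKO strength gave a TSS ratio of 1.56. GC over 50 bp on each side of the summit was 65.3%, the AP-1 ratio over 3 kb from TSSs was 1.64, and the median log2 ratio of deposited folds was -0.10. Of the alternatives chosen after seeing the data, requiring the WT threshold after depth scaling gave 66.3% and 1.81, and distal AP-1 in 5 equally weighted groups gave 1.74. No value changed direction except the AP-1 ratio over all regions, which has an interval that includes 1. The other alternatives moved the number of regions and of genes by less than 1.5 times. The causes of these changes were not tested. Depth limits all classes, since a region under the threshold in a list counts as absent from it.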
